A study of Homo sapiens with 24 samples.

Results

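The genes described here encode structural proteins of the nucleus, some of which are used to recognise senescent cells: the lamins LMNB1, LMNB2 and LMNA, the lamin B receptor LBR, the HMG-box proteins HMGB1 and HMGB2, and the AT-hook proteins HMGA1 and HMGA2. Their promoters were followed in H3K4me3 profiles, histone H3 trimethylated on lysine 4, a mark of active and poised promoters. For each gene, every region of the deposited H3K4me3 comparison within 2 kb of an annotated start of the gene was taken, and the region whose mean normalized count was highest stood for the promoter. This gave a promoter region for 8 of 8 genes, among 15085 of 20020 protein-coding genes with one, and 20 promoter regions in all, among 97545 regions.

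The profiles came from EndoC-βH3, a human beta-like line made from fetal pancreas and immortalised with telomerase and the large T antigen of SV40, a viral protein that binds p53 and Rb. The immortalising genes can be cut out by a CreER recombinase that 4-hydroxytamoxifen switches on, and the cells then become senescent. The labels give all samples the genotype WT, 4 non-senescent samples the treatment control and 4 senescent samples a senescence induction by 4-hydroxytamoxifen for 3 weeks (1 mM in the labels, 1 μM in the study's methods). H3K4me3 was precipitated by MINT-ChIP, in which chromatin of 500000 cells per sample is barcoded, pooled and split between antibodies. The samples are of a single line, nothing says that they came from separate cultures, and the p-values then measure only the spread between these samples. Exposure to the drug, loss of the transgenes and senescence differ together between the groups and cannot be told apart.

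The comparison holds 1 row per region and gives nothing for single samples. Their depth is therefore unknown, none of them could be shown or left out, and the spread between samples enters only through the authors' standard error (SE, n = 4 per group). The file does not name the direction of its log2 fold change. It was read as senescent over non-senescent because 17 of 17 proliferation genes that are not among the members were below 0 and the beta cell genes ABCC8 (1.18, adjusted p = 0.00208 by DESeq2) and IAPP (3.50, adjusted p = 0.0223, at a mean normalized count of only 6.94) were above it. The 6 other measured beta cell genes did not pass the test and give no direction, with INS at -0.42, NKX6-1 at -0.23, NKX2-2 at -0.19, UCN3 at -0.08, PDX1 at 0.00327 and SLC30A8 at 0.04. The INS region (mean normalized count 24.7) is shared with IGF2 and INS-IGF2, so its value cannot be assigned to INS alone. HMGB2 is itself counted among cell cycle genes, so its sign is not independent of that reading. Beta cell markers had a promoter region in 8 of 9 genes, with mean normalized counts of 6.94 to 473 (none at MAFA). Markers of other pancreatic, stromal, blood and vessel cells had one in 7 of 9 genes, with 1.12 to 24.1 (none at PPY and PTPRC).

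Lamins are intermediate filaments that line the inner nuclear membrane and anchor heterochromatin there, and loss of lamin B1 is among the most used marks of senescence. LBR holds heterochromatin at the same membrane and also carries a sterol reductase. HMGB proteins bend DNA through their HMG boxes, and HMGB1 leaves the nucleus of senescent cells and acts outside as an alarmin. HMGA proteins bind the minor groove of AT-rich DNA and take part in the heterochromatin foci of senescent fibroblasts.

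Of the 8 member promoters, 1 was lowered in senescent cells and 0 were raised, at an adjusted p under 0.05 and a change over 1.5-fold. The promoter called was that of HMGB2, whose H3K4me3 fell by 52.5%. Over all 14765 tested promoters of protein-coding genes, 0.704% were lowered and 0.501% were raised under the same limits. That is 104 lowered and 74 raised promoters, which became 157 and 51 with the median log2 fold change of all tested regions subtracted, and 59 and 65 with the median at similar signal and GC content subtracted. A further promoter, LMNB1, was lower at an unadjusted p under 0.05 only, which makes 2 members lower at that limit, where 7.08% of all promoters were lower and 4.78% higher. Of the 20 promoter regions, 17 had an adjusted p and the HMGB2 region alone was called, while 0.263% of all tested regions were lowered and 0.859% raised. Of these 17 regions, several of them from the same gene, 15 were below 0. So were 45.2% of all tested regions, inside and outside promoters, and 56.1% of promoters at 1 region per gene. At an unadjusted p under 0.05, 4 of the 17 were lower (1 each of LMNB1, LMNA, HMGB1 and HMGB2), as were 4.3% of all tested regions and 7.08% of promoters. The log2 fold change was below 0 in 7 of 8 members, and in 56.1% of all promoters. The members' median was -0.32, against -0.04 over all promoters.

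**Figure D1:**
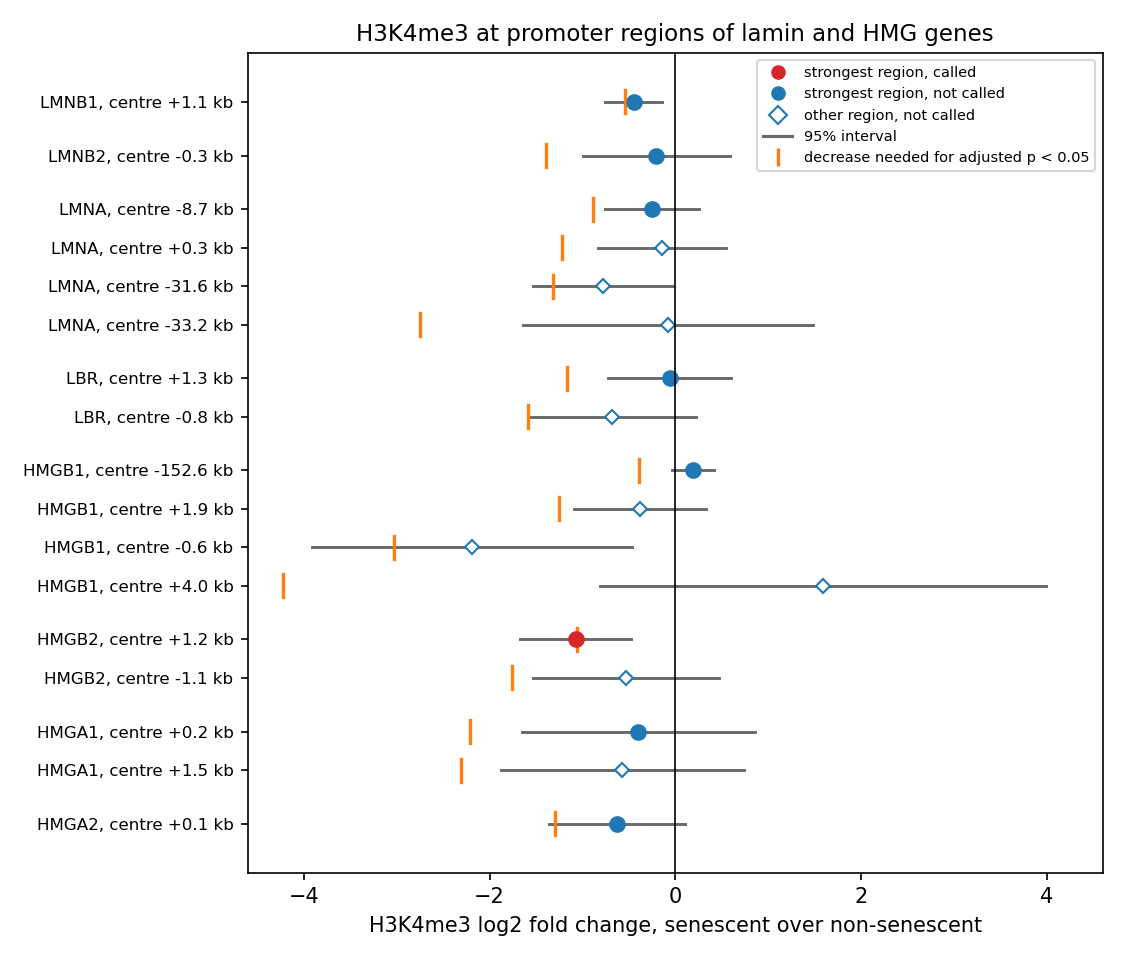
H3K4me3 log2 fold change (senescent over non-senescent, x axis) of the 17 member promoter regions with an adjusted p, named by gene and by the distance of the region's centre from the canonical start. Circles are the strongest region of a gene, diamonds its other regions, grey lines 95% intervals from the authors' SE, and orange marks the decrease that an adjusted p under 0.05 would have needed. Of these regions 15 lie below 0, and the HMGB2 circle alone lies beyond its orange mark.

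The upstream sequences of 3 genes are shown because they stand for the 3 ways in which the H3K4me3 regions sat at the starts: in a broad region (LMNB1), in a narrow one (LMNB2), and between regions (HMGB1). Each is the 250 bases before a RefSeq start (GRCh38.p14), 5′ to 3′ on the gene's strand, with matches to E2F, cell cycle homology or CCAAT letters in capitals. The LMNB1 stretch, chr5:126776373-126776622 on the plus strand, lies before a start at -513 bp from the canonical one and outside annotated UTRs. The LMNB2 stretch, chr19:2456960-2457209 on the minus strand, ends at the canonical start, and its capitals are TTTGAA. The HMGB1 stretch, chr13:30465937-30466186 on the minus strand, also ends at the canonical start, and its capitals are 3 CCAAT boxes.
LMNB1: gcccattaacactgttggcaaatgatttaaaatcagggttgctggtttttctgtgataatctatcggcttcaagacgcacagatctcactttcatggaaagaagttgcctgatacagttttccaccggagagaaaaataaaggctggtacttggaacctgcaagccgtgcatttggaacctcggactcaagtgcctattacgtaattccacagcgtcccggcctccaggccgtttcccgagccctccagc
LMNB2: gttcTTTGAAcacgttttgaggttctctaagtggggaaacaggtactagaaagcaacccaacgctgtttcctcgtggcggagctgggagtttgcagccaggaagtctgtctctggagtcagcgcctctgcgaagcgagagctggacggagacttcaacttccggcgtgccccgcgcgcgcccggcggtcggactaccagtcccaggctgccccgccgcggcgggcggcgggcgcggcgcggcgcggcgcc
HMGB1: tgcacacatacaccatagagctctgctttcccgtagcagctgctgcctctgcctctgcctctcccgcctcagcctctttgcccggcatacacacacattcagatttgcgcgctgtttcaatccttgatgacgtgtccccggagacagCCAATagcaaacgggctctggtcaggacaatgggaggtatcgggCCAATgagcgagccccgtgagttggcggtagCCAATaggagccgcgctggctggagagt
RefSeq promoters (250 bases before to 50 after a start) were matched for 6 of 8 genes, 12 promoters in all, with no entry for HMGB2 and HMGA2. Letters were searched on both strands. E2F letters (TTTCCCGC or TTTGGCGC) occurred in 2.27% of 35116 promoters and in 1 of the 12, at a LMNA start, from -23 to -16. The cell cycle homology letters TTTGAA occurred in 15.2% of all promoters, and here at LMNB2 and at a HMGB1 start 696 bp inside the gene. CCAAT occurred in 34.6% of all promoters, and at HMGB1 it stood at -103 to -99, -59 to -55 and -28 to -24. At the canonical LMNB1 start it stood once, at -138 to -134. CCAAT also occurred at a LMNA start (-146 to -142), at the canonical and another HMGA1 start, and at the HMGB1 start 696 bp inside the gene. GGGCGG (GC box) occurred in 45.0% of all promoters and the letters TATAAA in 11.5%. GC boxes numbered 5 at the canonical HMGA1 start, 4 at that of LMNB1 and 0 at that of HMGB1. The HMGB1 start 696 bp inside the gene had 9, the most of the 12 promoters, and the distal HMGB1 start had 2. None of the 12 member promoters held TATAAA.

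H3K4me3 covered the canonical start in the strongest region of 5 genes, LMNB1, LMNB2, HMGB2, HMGA1 and HMGA2. At LMNA the strongest region lay over an alternative start and reached no nearer than -7170 bp to the canonical one, and at HMGB1 it lay over an alternative start and reached no nearer than -149507 bp. The canonical starts of HMGB1 and LBR fell between regions, in gaps of 1478 bp and 574 bp. Such a start between regions was found in 12.5% of the genes with a promoter region, and a start inside a region in 70.4%.

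**Figure D2:**
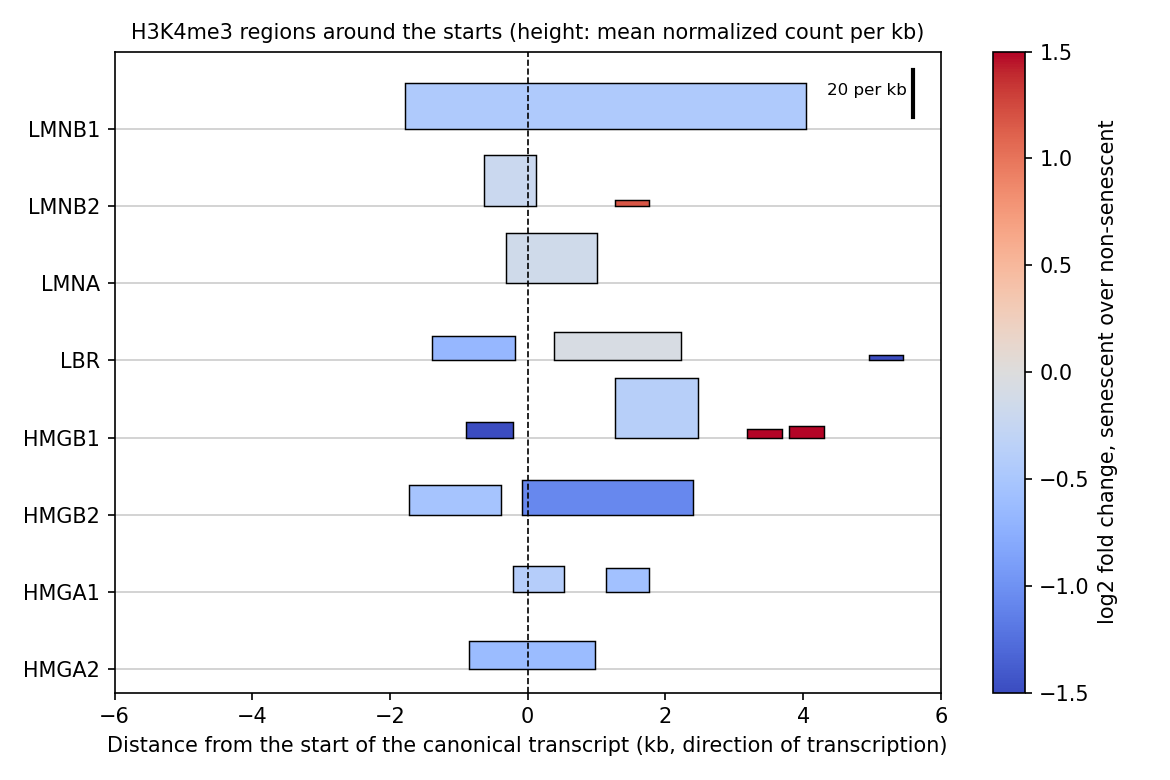
H3K4me3 regions within 6 kb of the canonical start of each gene, drawn along the direction of transcription (x axis, kb from the start). Height is the mean normalized count per kb of the region (scale bar, 20 per kb) and colour the log2 fold change, with colours ending at 1.5 in either direction. The LMNB1 region runs from -1788 to 4043 bp, while the HMGB1 and LBR starts lie in gaps.

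Per length, the mean H3K4me3 level of the strongest regions spanned 3.43-fold. On this scale of mean normalized count per kb, HMGB1 was highest at 38.3, then LMNB2 at 21.8 and LMNB1 at 19.3. The HMGB1 value is that of its distal region, which is shared with the gene USPL1. The regions flanking the canonical HMGB1 start had 25.3 and 6.63 per kb. HMGB2 had 14.9, LMNA 13.6, LBR and HMGA2 12.0 each, and HMGA1 11.2. The HMGB1 value of 38.3 exceeded that of 93.2% of promoters and the HMGA1 value that of 19.2%. No spread over samples is known for these levels, so neighbours in the order cannot be separated.

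LMNB1 encodes lamin B1, and its promoter was covered by a single region, chr5:126775348-126781179, over the start site, UTR and coding bases. With 5831 bp it was wider than 94.7% of promoter regions, and 6 starts lay inside it. The mean normalized count was 112.8, and the log2 fold change -0.45 (SE 0.156, 95% interval -0.755 to -0.144, unadjusted p = 0.00397). If the mean lies midway between equally large groups, this change corresponds to counts of 130.2 in non-senescent and 95.4 in senescent cells, so that H3K4me3 fell by 26.7%. The adjusted p was 0.124 by the authors' DESeq2 test, so LMNB1 was not called. Its interval lay below 0, but 15.1% of promoters had a lower log2 fold change. At this SE an adjusted p under 0.05 would have needed 1.45-fold and the LMNB1 change was 1.37-fold, under the 1.5-fold limit as well.

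LMNB2, the other B-type lamin, had a narrow region at its start, chr19:2456841-2457593 (752 bp), with a mean normalized count of 16.4. The log2 fold change there was -0.20 (SE 0.403, interval -0.993 to 0.588, adjusted p = 0.876 by DESeq2). A decrease to pass the adjusted limit would have had to reach 2.62-fold, so a change of the LMNB1 size was not detectable at LMNB2. A second region in its intron, chr19:2455193-2455693, had a mean normalized count of 1.20, with a log2 fold change of 1.18 (SE 2.20) and no adjusted p.

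LMNA encodes lamins A and C from one gene with 28 annotated starts, and 4 H3K4me3 regions lay near them. The strongest, chr1:156104423-156107541, had a mean normalized count of 42.4 and a log2 fold change of -0.25 (SE 0.259, interval -0.756 to 0.257, adjusted p = 0.729 by DESeq2). The region at the canonical start, chr1:156114396-156115721, had 28.4 and a log2 fold change of -0.14 (SE 0.352, adjusted p = 0.906). A far upstream region, chr1:156082325-156083914, which also lies near starts of MEX3A, had 20.1 and a log2 fold change of -0.78 (SE 0.382, unadjusted p = 0.0418, adjusted p = 0.347). Beside it, chr1:156081137-156081839 had 4.04 and -0.08 (SE 0.797). All 4 LMNA regions were below 0 and 0 of them was called.

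LBR had H3K4me3 on either side of its canonical start. The downstream region, in an intron, chr1:225425815-225427652, had a mean normalized count of 22.1 and a log2 fold change of -0.06 (SE 0.338, interval -0.721 to 0.602, adjusted p = 0.964 by DESeq2). The upstream region, chr1:225428226-225429435, holds 2 annotated starts and had 12.6, with a log2 fold change of -0.68 (SE 0.460, interval -1.58 to 0.222, adjusted p = 0.546). The intervals of the 2 flanks overlap. A region further into the gene, chr1:225422583-225423083, had a mean normalized count of 1.10 and no adjusted p.

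HMGB2 was the member with the lowest log2 fold change. Its strongest region, chr4:173331955-173334438, runs from 80 bp before the start to 2403 bp inside, over most of this short gene. With a mean normalized count of 37.0, the log2 fold change was -1.07 (SE 0.306, interval -1.67 to -0.472, unadjusted p = 0.000465, adjusted p = 0.0456 by DESeq2). This corresponds to counts of 50.1 in non-senescent and 23.8 in senescent cells, 2.10-fold, where 2.08-fold was needed to pass, so the call stood just inside the limit. A lower log2 fold change was found at 3.00% of promoters. The median log2 fold change of regions with similar GC content was -0.04, and with that median subtracted the HMGB2 value was -1.04 (adjusted p = 0.0743, not called), with its interval still below 0. Upstream, after a gap of 312 bp, chr4:173334750-173336077 had 17.0 and a log2 fold change of -0.53 (SE 0.511, interval -1.53 to 0.473, adjusted p = 0.703).

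HMGB1, the close paralog of HMGB2, had several regions, whose log2 fold changes differed in sign. The strongest region, chr13:30615443-30621621, lies over a distal coding start and is shared with the window of USPL1, a gene for a SUMO protease, so its signal cannot be assigned to HMGB1 alone. Its mean normalized count of 236.9 was above that of 98.4% of promoters, and its log2 fold change was 0.19 (SE 0.114, interval -0.035 to 0.414, adjusted p = 0.479 by DESeq2). An adjusted p under 0.05 would have needed 1.31-fold there, so the 1.5-fold limit was the larger of the 2. Near the canonical start, the region inside the gene, chr13:30463464-30464675, had 30.6 and -0.38 (SE 0.363, interval -1.09 to 0.336, adjusted p = 0.704). Its interval overlaps that of the strongest region.

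The region just upstream of the canonical HMGB1 start, chr13:30466153-30466833, into which the distal end of the printed HMGB1 stretch reaches, had a mean normalized count of 4.51. Its log2 fold change was -2.19 (SE 0.878, interval -3.91 to -0.469, unadjusted p = 0.0126, adjusted p = 0.207), and an 8.13-fold change would have been needed to pass. Further into the gene, chr13:30461637-30462137 had 2.59 and a log2 fold change of 1.59 (SE 1.23, adjusted p = 0.607). Its neighbour chr13:30462246-30462746 had 1.79 and 2.48 (SE 1.59), with no adjusted p. The choice of region therefore set the sign for HMGB1, and none of its 5 regions was called.

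HMGA1 had the weakest signal of the group. Its region at the start, chr6:34236666-34237398, had a mean normalized count of 8.18, with a log2 fold change of -0.40 (SE 0.641, interval -1.65 to 0.856, adjusted p = 0.840 by DESeq2). A region in an intron, chr6:34238012-34238640, had 6.51 and -0.57 (SE 0.669, adjusted p = 0.769). With 4.62-fold needed at the start, changes of the HMGB2 size were not detectable at HMGA1. Its region was also 70.4% G and C, more than 99.5% of promoters, and regions of similar GC content had a median log2 fold change of -0.46, close to the HMGA1 value. The same median applied to HMGA2 at 65.0% G and C, so GC content was matched only loosely here. The part of GC content in these values was not tested.

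HMGA2 had 1 promoter region, chr12:65823625-65825454, over the start site, with 5 starts inside. The mean normalized count was 21.9 and the log2 fold change -0.63 (SE 0.375, interval -1.36 to 0.11, unadjusted p = 0.0955, adjusted p = 0.474 by DESeq2). A lower log2 fold change was found at 9.29% of promoters. Its region was 65.0% G and C, and the median at similar GC content was -0.46, which leaves -0.17 for HMGA2 after subtraction.

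**Figure D3:**
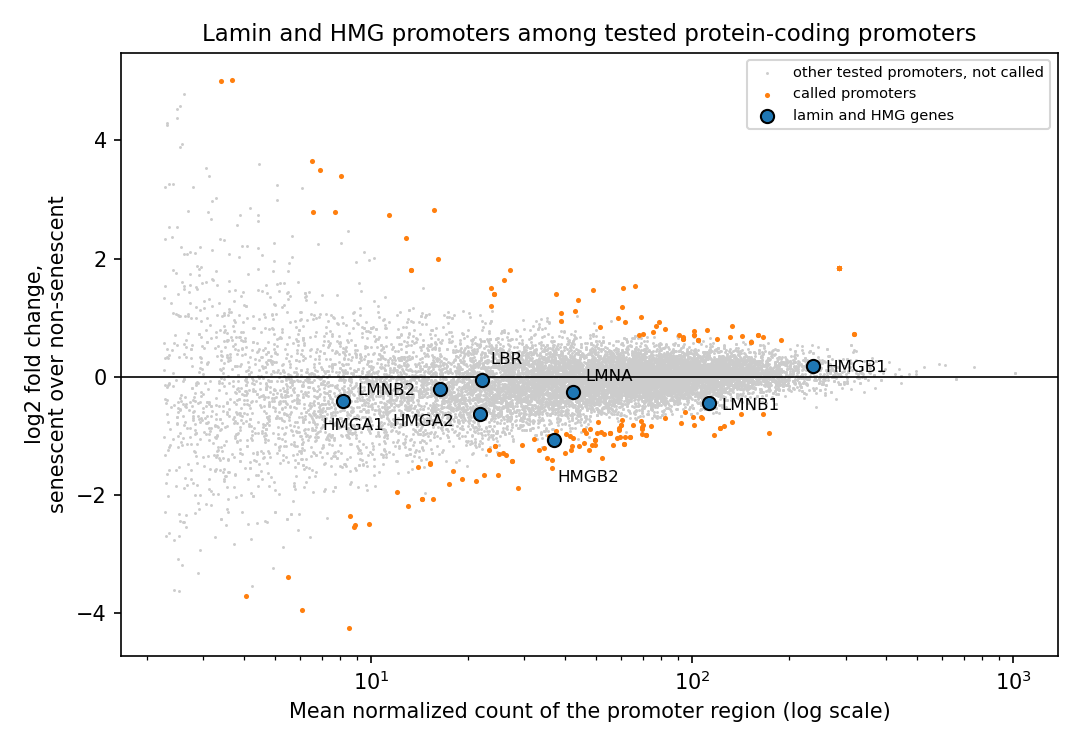
Mean normalized count (x axis, log scale) against log2 fold change (y axis, senescent over non-senescent) of the strongest region of 14765 tested protein-coding promoters. Grey points were not called, orange points were called at an adjusted p under 0.05 and over 1.5-fold, and blue points are the lamin and HMG genes, of which HMGB2 lies among called promoters. Scatter is wide at the counts of HMGA1 (8.18) and narrow at that of HMGB1 (236.9).

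From lowest to highest log2 fold change, the strongest regions ran HMGB2, HMGA2, LMNB1, HMGA1, LMNA, LMNB2, LBR and HMGB1. The 95% intervals of every gene and its neighbour in this order overlapped. Among the 28 pairs of genes, the intervals did not overlap in 2, HMGB1 against HMGB2 and HMGB1 against LMNB1. These differences were not tested, since both regions of a pair were measured in the same samples. The interval lay below 0 in 2 genes and included 0 in 6. Both pairs rest on the HMGB1 region shared with USPL1, and the interval of the HMGB1 region nearest inside the canonical start overlapped those of HMGB2 and LMNB1.

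The partners of these proteins gave 0 further calls, at limits that 0.704% of all promoters passed as lowered and 0.501% as raised. Among 19 genes of the lamina and nuclear envelope, such as the LINC complex and the enzymes that process lamins, 0 were called. The median log2 fold change was -0.27. Below 0 were 13 of the 19, against 56.1% of all promoters. At an unadjusted p under 0.05, 3 were lower, against 7.08% of all promoters. These 3, of which the latter 2 were named after their values were seen, were ICMT, which methylates the processed end of lamins (-1.26, SE 0.468, adjusted p = 0.162), EMD, the envelope protein emerin (-1.20, SE 0.608, adjusted p = 0.370), and SYNE2, a nesprin that links nucleus and cytoskeleton (-0.71, SE 0.242, adjusted p = 0.114 by DESeq2). Mean normalized counts were low at ICMT (14.1) and EMD (7.01) and 47.7 at SYNE2, against a list median of 52.6. The highest log2 fold change of the list was that of SUN1, a LINC complex protein (0.44, SE 0.294).

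Of 7 other HMGB and HMGN genes, HMGB4 had no region, and 0 of the 6 tested were called, with a median log2 fold change of -0.05. They ran from HMGB3 at -0.46 (SE 0.355) to HMGN5 at 0.26 (SE 0.228), so the strongest region of HMGB2 lay below those of all measured HMGB and HMGN relatives. The order was not tested, and the HMGB3 interval (-1.15 to 0.237) overlaps that of HMGB2 (-1.67 to -0.472). A weak HMGB1 region just upstream of its canonical start lay lower, at -2.19. Of 15 other HMG box genes 0 were called, with a median of -0.14 and values from -0.37 at TOX2 to 0.52 at HMG20B. Of 11 genes for factors of senescence heterochromatin, among them HIRA and its partners, HP1 proteins and macroH2A, 0 were called and the median was -0.12, with ASF1B, a histone chaperone of dividing cells, lowest at -0.86 (SE 0.517, adjusted p = 0.477 by DESeq2). Below 0 were 4 of the 6 HMGB and HMGN genes, 12 of the 15 HMG box genes and 9 of the 11 heterochromatin genes. The share of all promoters below 0 was 56.1%. Lower at an unadjusted p under 0.05 were 0, 1 and 1 genes of these lists, against 7.08% of all promoters.

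By contrast in calls, 6 of 17 proliferation genes were lowered (CCNE2, NDC80, MCM2, AURKB, PCNA and TPX2), against 0.704% of all promoters. Below 0 were 17 of 17, against 56.1% of all promoters, and the median was -0.55. The median SE of this list was 0.206 and its median count 72.2, against 0.322 and 29.5 for the members. Smaller changes could therefore be called in this list, and the part of precision in the contrast was not tested. CCNE2, the cyclin E2 gene, had the lowest value at -1.02 (SE 0.222, adjusted p = 0.00263 by DESeq2), and PLK1, a mitotic kinase gene, the highest at -0.13 (SE 0.330, adjusted p = 0.905). The HMGB2 value of -1.07 lay just below that of CCNE2, and the LMNB1 value of -0.45 lay within the range of this list. This list served to read the direction of the contrast, so its sign carries no further information, and no difference between lists was tested.

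**Figure D4:**
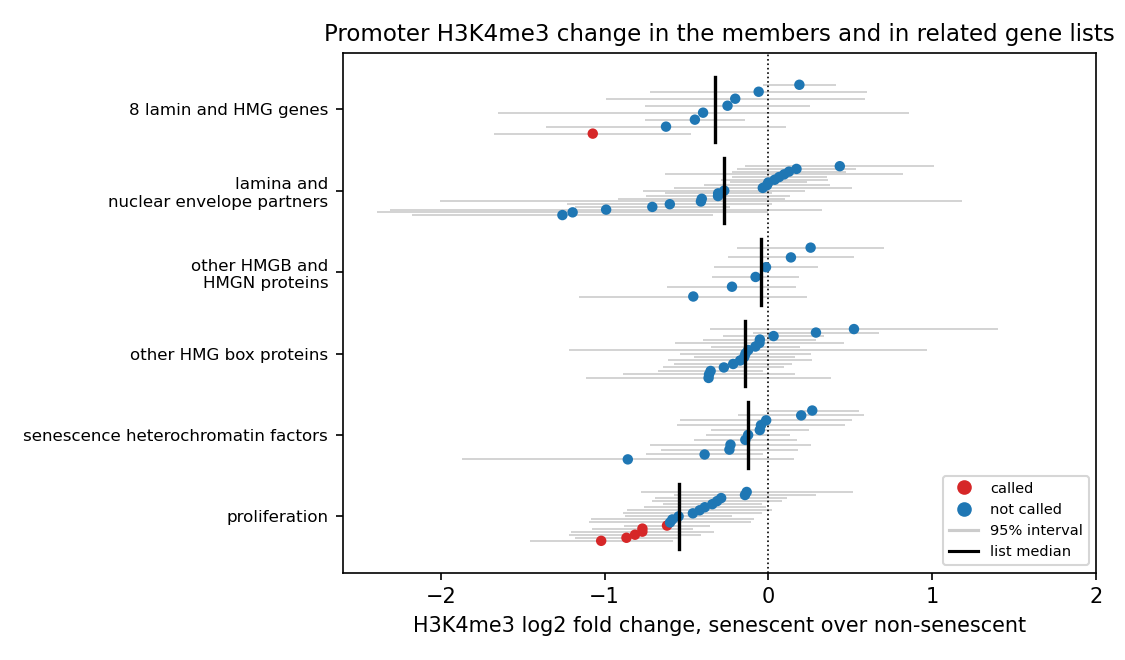
H3K4me3 log2 fold change (x axis, senescent over non-senescent) of the strongest promoter region of each gene, in rows for the 8 members and 5 related lists. Points are genes (red, called; blue, not called), grey lines 95% intervals and black bars list medians, which run from -0.55 for proliferation genes to -0.05 for other HMGB and HMGN genes.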

How the data were processed

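H3K4me3 MINT-ChIP was compared between EndoC-βH3 cells in both states, with 4 samples each. The 16 samples of H3K27me3 and H3K9me3 are not analysed here. The authors used Bowtie2 (hg38) for alignment, then samtools, HOMER for peaks and DESeq2 for the comparison. The deposited signal of a region is the authors' DESeq2 mean of normalized counts over samples. The deposited log2 fold change, its standard error, the Wald score and the p-value of each region, with its Benjamini-Hochberg adjusted p-value over 72959 regions, are the authors' DESeq2 estimates, and all tests rest on them. How regions were merged, reads counted and duplicates treated for H3K4me3 is not given in the sources used here, and neither are the terms of the model. Coordinates are as deposited. Depth per sample is unknown, and intervals cover the authors' standard error only.

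GENCODE release 44 gave the starts of protein-coding genes, with a window of 2 kb around each. The named genes are the 8 members, any gene sharing their strongest region, and from each related list the lowest, the highest and every called gene. EMD and SYNE2, and the genes near other regions (MEX3A, LAMTOR2, UBQLN4, SMIM29 and SAP30), were named outside this rule after their values were seen. The members and lists were chosen with earlier results of these data known. Intervals (95%) are the log2 fold change plus or minus the normal quantile times its standard error. The log2 change needed to pass is the standard error times 3.44, the smallest Wald score that passed. GC content was counted in hg38, and a median of regions with similar GC content, or similar signal and GC content, was subtracted before the Wald score and the adjustment were recomputed. Scripts were tested on simulated data and ran in Python 3.11.15, pandas 2.3.3, scipy 1.17.1 and samtools 1.23.1.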

Additional observations from a re-analysis of the deposited data

How the results depend on the processing

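Each member's value was recomputed under 10 alternatives, of which the restriction to starts of coding transcripts was chosen after seeing the data. LMNB1, LMNA and HMGA2 kept their direction and stayed uncalled under all 10. LMNB1 and HMGA2 have 1 promoter region each, so only the 3 subtractions of a median could change their values, and the other 7 alternatives do not test their direction. LMNB1 ranged between -0.53 and -0.35 (lowest adjusted p = 0.0575, with the median of all tested regions, 0.08, subtracted). The HMGB2 value also moved under 3 alternatives only. It kept its call under 8 of 10, with adjusted p from 0.0283 to 0.0932 over the 10. Of the 8, 7 left the value unchanged and so do not test its size. Of the 3 that moved the value, 2 lost the call. HMGB2 lost it with the median at similar GC content subtracted (-1.04, adjusted p = 0.0743) or that at similar signal and GC content (-1.01, adjusted p = 0.0932), where 0 member promoters were lowered. With the region nearest the canonical start or with the smallest p, HMGB1 turned to -2.19. With the smallest p, LMNB2 turned to 1.18. Subtracting the GC median turned LMNB2 to 0.0703, LBR to 0.0230 and HMGA1 to 0.0571. Subtracting that for signal and GC turned LMNB2 to 0.0614 and LBR to 0.11. Over all promoters, 104 lowered and 74 raised became 61 and 42 over 2-fold, 134 and 139 with the smallest p, 157 and 51 with the overall median subtracted, 65 and 62 with the GC median subtracted and 59 and 65 with that for signal and GC. The cause was not tested, and none of the reversed values was called. No paired analysis was possible because the deposited comparison holds no value per sample, although the labels share replicate numbers, and for the same reason no replicate could be left out. Low counts limit HMGA1, LMNB2 and the weak regions of HMGB1, where only large changes could pass.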

Other observations

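Beyond the promoters, 34 further H3K4me3 regions lay in the bodies of these genes or within 50 kb of them. Of these, 29 had an adjusted p and 0 were called. Below 0 were 20 of the 29, against 45.2% of all tested regions, and 4 were lower at an unadjusted p under 0.05, against 4.3% of all tested regions. HMGA2 held 9 regions inside its long gene body. The strongest of them, chr12:65925506-65927954, lies in an intron 101023 bp or more downstream of the start, and with a mean normalized count of 59.9 it carried more H3K4me3 than the promoter region (21.9). Its log2 fold change was -0.23 (SE 0.250, adjusted p = 0.745 by DESeq2). Another intronic region, chr12:65942743-65943784, had -1.16 (SE 0.539, unadjusted p = 0.0318, adjusted p = 0.310 by DESeq2) at a mean normalized count of 10.2.

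Around LMNA, chr1:156052521-156053626, near starts of LAMTOR2 and UBQLN4, had a log2 fold change of -0.97 (SE 0.312, adjusted p = 0.0840 by DESeq2), while its neighbour chr1:156054174-156056513, near the same starts, had 0.04 (SE 0.182). Around HMGA1, chr6:34196251-34196974 had -0.89 (SE 0.438) and chr6:34247935-34250098, near a start of SMIM29, had -0.73 (SE 0.365), with adjusted p of 0.347 and 0.357 by DESeq2. Around HMGB2, the promoter region of SAP30, chr4:173369064-173373755, had 0.06 (SE 0.234, adjusted p = 0.939 by DESeq2) at a mean normalized count of 67.0, while HMGB2 itself had -1.07.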
